A study of Mus musculus with 7 samples.

Results

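The cytosolic ribosomal protein genes encode the proteins of the ribosome that translates nuclear mRNA. They were chosen by symbol among the protein-coding genes of GENCODE vM21 on mm10 (GRCm38), as Rpl or Rps followed by a digit, together with *Rplp0*, *Rplp1*, *Rplp2* and *Rpsa* and without the Rps6k kinases, which gave 92 of 21951 genes. Of these, 57 belong by symbol to the large and 35 to the small subunit. DNase-Seq was performed on a differentiated, conditionally immortalised mouse podocyte line kept for 36 h. The medium held 5 mM glucose (NG) or 25 mM, there joined by 50 nM of either a nontargeting mimic (HG+NT) or the miR-93 mimic (HG+miR-93). Each condition had 2 replicates, and genomic DNA digested with little DNaseI, 1 sample, served as input. The NG cells had no mimic, so glucose and transfection differ together between NG and both other conditions and cannot be told apart there. The deposited peaks form 1 list per condition with the replicates pooled, so differences between conditions could not be set against a replicate spread and were not tested. In these bulk cells, fewer cells with an open promoter and less opening per cell cannot be told apart.

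A eukaryotic ribosome holds a single copy of nearly every ribosomal protein, and cells make these proteins in matched amounts. The genes are among the most active housekeeping genes. Their mRNAs typically start with a cytosine followed by a tract of pyrimidines, the terminal oligopyrimidine (TOP) motif, through which mTOR controls their translation, and their promoters mostly lie in CpG islands with sites for ETS-family factors, Sp1 and YY1. DNaseI cuts DNA that is not wrapped in nucleosomes, so that fragment ends accumulate where a promoter is accessible.

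The promoters that the results turn on are shown first, from 100 bases before to 20 bases after the annotated TSS in the GRCm38 reference sequence of RefSeq, 5′ to 3′ on the strand of the gene. *Rps29* had among the highest folds, *Rpl24*, *Rpl35a* and *Rpl36al* had lower pileups in HG+miR-93 than in NG, *Rps6* and *Rps4x* had low folds in each list, and *Rpl10l* is a single-exon copy. Capitals mark matches on either strand to CTTCCG, the core bound by ETS factors, and GGGCGG, the Sp1 box.
Rps29, chr12:69159167-69159286, minus strand: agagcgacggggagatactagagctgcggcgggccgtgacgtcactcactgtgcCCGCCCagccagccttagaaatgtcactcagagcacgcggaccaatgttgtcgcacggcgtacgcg
Rpl24, chr16:55966175-55966294, plus strand: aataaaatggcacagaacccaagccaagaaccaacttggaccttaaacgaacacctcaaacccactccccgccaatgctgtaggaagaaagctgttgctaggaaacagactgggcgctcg
Rpl35a, chr16:33056353-33056472, plus strand: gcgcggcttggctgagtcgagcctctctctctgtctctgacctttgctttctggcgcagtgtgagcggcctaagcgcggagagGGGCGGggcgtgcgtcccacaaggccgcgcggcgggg
Rpl36al, chr12:69184064-69184183, minus strand: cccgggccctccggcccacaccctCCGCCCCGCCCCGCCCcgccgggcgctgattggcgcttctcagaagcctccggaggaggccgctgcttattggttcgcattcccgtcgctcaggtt
Rps6, chr4:86857393-86857512, minus strand: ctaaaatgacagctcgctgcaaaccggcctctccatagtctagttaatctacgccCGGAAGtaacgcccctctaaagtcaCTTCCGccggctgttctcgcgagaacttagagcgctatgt
Rps4x, chrX:102189375-102189494, minus strand: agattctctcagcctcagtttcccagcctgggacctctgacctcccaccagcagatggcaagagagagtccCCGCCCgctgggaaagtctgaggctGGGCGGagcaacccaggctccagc
Rpl10l, chr12:66284382-66284501, minus strand: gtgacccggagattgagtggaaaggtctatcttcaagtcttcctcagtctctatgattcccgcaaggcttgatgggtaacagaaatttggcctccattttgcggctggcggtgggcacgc

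The TOP motif is shown in 7 starts, each with 10 bases before and 20 bases after the annotated TSS. Capitals mark the pyrimidine run that opens with C and any match to the same motifs. Each run was marked from the qualifying C nearest the annotated TSS. That C was at the TSS itself at *Rpl30*, *Rpl32*, *Rpl37*, *Rps2* and *Rps21* and a single base before it at *Rps19* and *Rpl29*. Except at *Rps21*, pyrimidines also preceded the marked run, so the whole tract began further upstream.
Rpl30, chr15:34443203-34443232, minus strand: ggagctccttCCTTTCTCgctccccggcca
Rps19, chr7:24884626-24884655, plus strand: cgtcgttccCTTTCCCCTggctggcagcgc
Rpl29, chr9:106429529-106429558, plus strand: tttctctttCTCTTCCGgtctccggcgctg
Rpl32, chr6:115808728-115808757, minus strand: gccgccgcctCTTCCTTCTTCCTCggcgct
Rpl37, chr15:5116635-5116664, plus strand: ggggtgctttCTCTTCCGgtctctttggcc
Rps2, chr17:24720100-24720129, plus strand: gcgcctccctCTTCTTCTTCTTCgggagaa
Rps21, chr2:180257367-180257396, plus strand: cgaggacCCGCCCTCCTgcccaatagtgct

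The sequence of the promoters was described over 250 bases before and 50 bases after 1 annotated TSS per gene. A TOP start, a C followed by at least 4 pyrimidines and beginning within 5 nt of that TSS, was found at 31 of 92 genes (33.7%, 95% Wilson interval 24.9 to 43.8%) and at 17.7% of all promoters, and at the very TSS at 13% and 2.18%. A TOP start was found at 15 of 35 small and 16 of 57 large subunit genes. Bases before its C were not considered, so the pyrimidine tract itself can begin further upstream. CTTCCG was present on either strand at 55.4% of the ribosomal protein promoters and 20.5% of all promoters, and GGGCGG at 53.3% and 44.8%. The YY1 core GCCATNTTG was present at 5.43% and 2.84%, and all 5 genes with it belonged to the large subunit. TATAAA, the TATA box, was present at 9.78% and 13.3%. CTTCCG was also present at 56.4% of the promoters of mitochondrial ribosomal protein genes and 55.0% of those of proteasome genes, so this share was not particular to the cytosolic ribosome. The GC content had a median of 56.0% at ribosomal protein promoters and 55.7% at all promoters, while the observed over expected CpG was 0.829 and 0.545. A value of at least 0.6, called CpG-rich here, was reached by 75 of the 92 genes (81.5%) and by 46.0% of all promoters. Among the small subunit genes it was reached by 33 of 35 and among the large subunit genes by 42 of 57. The 7 single-exon copies had a lower GC content, with a median of 44.3%.

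Every peak in a list has a fold, which is the number of fragments at its summit over the local mean of the input, each increased by 1. Each gene was given its highest fold over all peaks that reached into the 500 nt before or after a TSS, and this fold was ranked as a percentile among the 21835 genes with such a peak in each list. All 92 ribosomal protein genes had one in each list. The lists are permissive, with 846027 to 1036304 peaks and median widths of 1401 to 1790 bp, and the fragments at a summit and the input's local mean were recovered from fold and p. The lists rested on 2.24 (NG), 3.85 (HG+NT) and 5.15 (HG+miR-93) fragments for each fragment of the input. Dividing by this depth gave the pileup, the fragments expected had the list been as deep as the input. Its exact Poisson interval (95%) accounts for counting error alone. Values given as triplets below follow the order NG, HG+NT, HG+miR-93. At ribosomal protein promoters the median number of fragments was 19.5, 26 and 30, so the interval of a single gene was wide. Among the peaks at least as strong by p as the 20000th of a list, 43, 26 and 12 members had a promoter peak. These were 46.7%, 28.3% and 13%, against 35.0%, 26.4% and 21.9% of all promoters. Because of ties these sets held 28769, 21479 and 21234 peaks, so the NG share rests on a larger set. Few of these peaks were strong by the authors' own false discovery estimate. A −log10 q above 0 was given to *Rps29*, *Rpl36al*, *Rpl30* and *Rps12* in NG, to *Rps29* alone in HG+NT and to 0 members in HG+miR-93, and over all 21835 promoters to 401, 480 and 24.

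By fold, ribosomal protein promoters were around the middle of all promoters in NG and HG+NT, where the interval of their median held that of all promoters, and below it in HG+miR-93. Their median percentile was 56.6 (95% interval of the median 47.6 to 69.7) in NG, with 43.2 (28.6 to 53.3) for HG+NT and 37.0 (28.3 to 47.0) for HG+miR-93, where all promoters had 50.9, 49.9 and 49.8. The large subunit genes had medians of 62.7, 49.1 and 43.6 in the same order and the small subunit genes 47.6, 32.4 and 34.5. Members spanned nearly the whole scale in each list, as the plot of single genes shows, so the group was not uniform. Only *Rps29* and *Rpl30* were above the 90th percentile in each list, and *Rpl13*, *Rps10* and *Rps27l* were also above the 75th, together 5 of 92, a level reached by 7.41% of all promoters. At or below the 25th percentile in each list were 9 members, *Rps4x*, *Rps6*, *Rps19bp1*, *Rps23*, *Rps26*, *Rps27a*, *Rps28*, *Rpl36a-ps1* and *Rpl39l*, a level reached by 7.46% of all promoters.

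**Figure D1:**
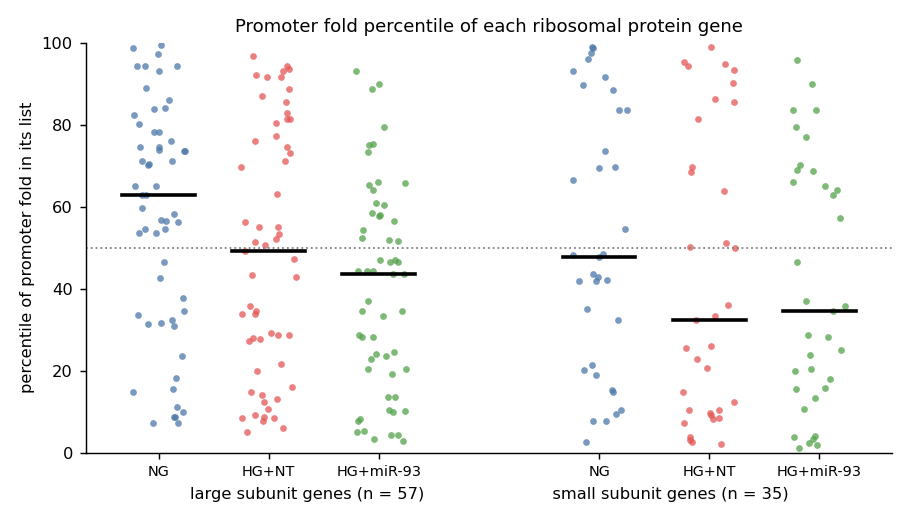
Percentile of promoter fold (vertical axis, 0 to 100) of each large subunit (left) and small subunit (right) gene in each list, from NG through HG+NT to HG+miR-93. Points are genes, black bars are medians and the dotted line is percentile 50. Both subunits spread over most of the scale in each list, with large subunit medians of 62.7, 49.1 and 43.6 and small subunit medians of 47.6, 32.4 and 34.5.

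By pileup, the same promoters stood well above the middle. At the strongest peak by fold, the median pileup of ribosomal protein genes was 8.71, 6.75 and 5.83, against 4.91, 4.67 and 4.66 for all promoters, and their median pileup percentiles were 75.6, 74.0 and 69.7. The input was also higher at these sites. Its local mean had medians of 3.8, 3.4 and 3.6 fragments at ribosomal protein peaks and 2.0 in each list over all promoters. It was above the input's background mean of 1.43 at 88, 86 and 87 of the 92 genes, against 73.1%, 73.5% and 73.9% of all promoters. High fragment numbers over a high input gave median folds close to those of all promoters in NG and HG+NT. In HG+miR-93 the median fold was lower. *Rps23*, a small subunit protein at the decoding site, was a more extreme case, with low folds. It had 22, 30 and 32 fragments over input means of 10, 9 and 5, and fold percentiles of 2.62, 3.08 and 15.5.

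**Figure D2:**
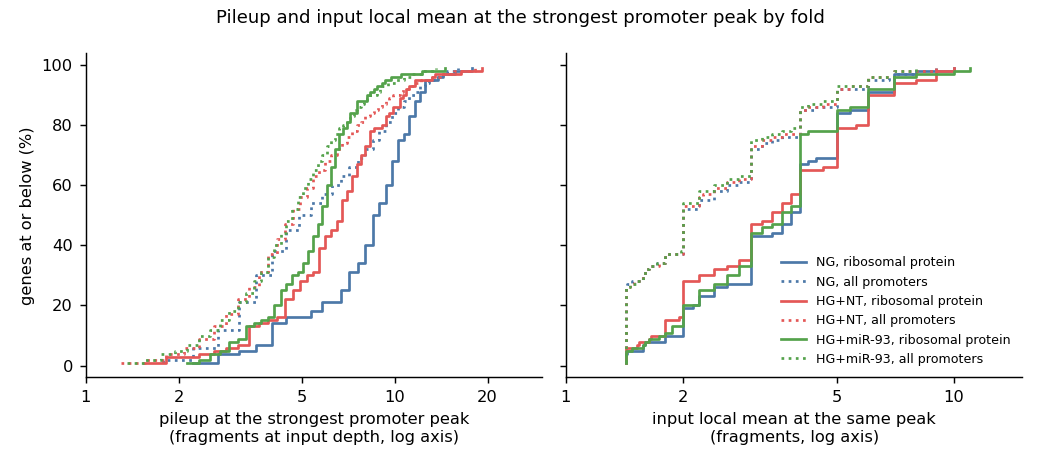
Cumulative share of genes (vertical axis, percent) against the pileup at the strongest promoter peak by fold (left, fragments at the depth of the input, log axis) and the local mean of the input at the same peak (right, fragments, log axis). Solid lines are the 92 ribosomal protein genes and dotted lines all promoters, coloured by list. Both quantities were shifted to higher values at ribosomal protein genes, with median input means of 3.8, 3.4 and 3.6 against 2.0.

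Pileups were next compared at the promoter peak with the highest pileup of each gene, whatever its fold, a choice made after the values had been seen. The medians of the ribosomal protein genes were 9.38 (95% interval 8.49 to 9.83), 6.75 (6.23 to 7.53) and 6.02 (5.64 to 6.41), or 1.62, 1.37 and 1.24 times those of all promoters. Above the 75th pileup percentile were 47, 42 and 26 of the 92 (51.1%, 45.7% and 28.3%), against 23.7%, 25.7% and 24.5% of all promoters. The 78 mitochondrial ribosomal protein genes had medians of 8.93, 7.01 and 5.93, the 40 proteasome genes 8.93, 6.75 and 6.02, and the 44 ribosome biogenesis genes 8.93, 7.14 and 6.51. The order of the lists and the size of the differences were thus shared by other housekeeping groups. CpG-rich promoters of other genes, 9977 in number, had medians of 8.49, 6.75 and 6.22, and the 75 CpG-rich ribosomal protein promoters 9.38, 7.01 and 6.22. The corresponding fold percentiles were 65.5, 60.7 and 57.9 for the other genes and 58.2, 43.0 and 37.0 for the ribosomal protein genes, whose input means had medians of 4.0, 3.8 and 4.0 against 3.0 in each list. The CpG-poor ribosomal protein promoters were mixed. The 17 of them had median pileups of 8.04 (95% interval 4.02 to 10.7), 5.45 (4.41 to 7.27) and 4.66 (3.89 to 6.02), whereas the 11766 CpG-poor promoters of other genes had 4.02, 3.90 and 3.89. In NG the 17 ranged from 2.68 at *Rpl36-ps4* and *Rpl9-ps6* to 12.1 at *Rpl8*, and some of the high ones, such as *Rpl24*, with an observed over expected CpG of 0.587, and *Rpl41*, with 0.595, were just under the threshold of 0.6. Genes with and without a TOP start had similar pileups, with medians of 9.38, 6.75 and 6.02 for the 31 with one and 8.93, 7.27 and 6.02 for the other 61. Their median fold percentiles were 54.6, 63.9 and 46.6 with a TOP start and 59.8, 33.8 and 37.0 with none.

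**Figure D3:**
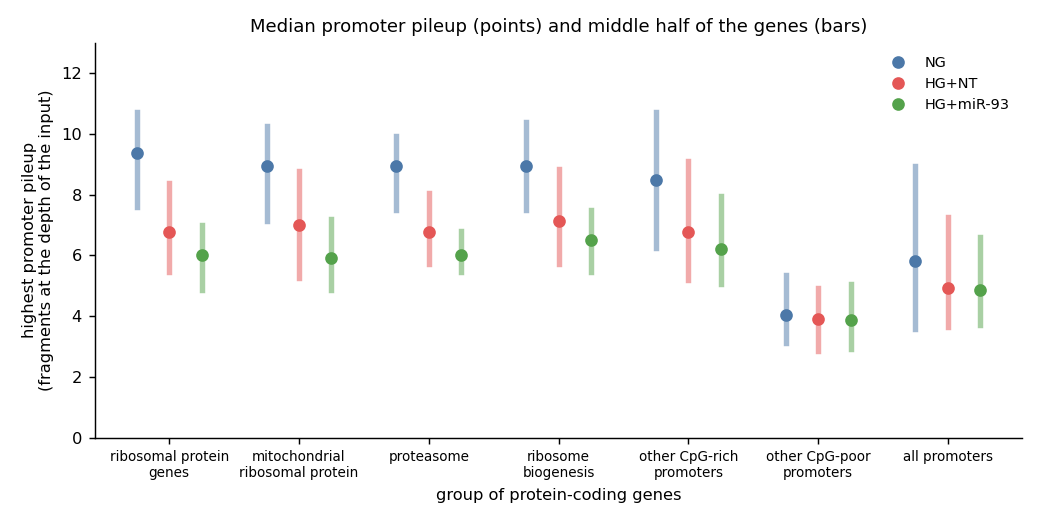
Highest promoter pileup (vertical axis, fragments scaled to the input's depth) in each list for groups of protein-coding genes. Points are medians over genes and bars span the first to the third quartile. The cytosolic ribosomal protein, mitochondrial ribosomal protein, proteasome, ribosome biogenesis and other CpG-rich promoters had medians of 8.49 to 9.38 in NG and 5.93 to 6.51 in HG+miR-93, and other CpG-poor promoters stayed at 4.02 or below.

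The summits lay close to the TSS more often than at all promoters, as they did in other housekeeping groups. The summit of the strongest peak by fold was within 150 nt of a TSS at 54, 49 and 43 of 92 genes (58.7%, 53.3% and 46.7%, with 95% Wilson intervals of 48.5 to 68.2% in NG and 36.9 to 56.9% in HG+miR-93), against 32.5%, 33.3% and 31.8% of all promoters. The shares were 56.4%, 53.8% and 57.7% for mitochondrial ribosomal protein genes, 52.5%, 52.5% and 50% for proteasome genes and 72.7%, 70.5% and 65.9% for ribosome biogenesis genes, so they were not particular to the cytosolic ribosome. With 1 TSS per gene instead of any, the share of cytosolic ribosomal protein genes in NG was 41.3%, below the interval given above. The share of all promoters in that setting is not given here. At 23 members (25.0%) the summit was within 150 nt of any TSS in each list, against 11.7% of all promoters. These included *Rps29*, *Rpl30*, *Rpl13*, *Rps10*, *Rps12*, *Rpl5*, *Rpl11*, *Rplp0*, *Rplp2* and *Rpsa*. Summits more than 1000 nt away were found at 8, 11 and 14 members, and at 25.8%, 30.5% and 30.8% of all promoters. Several peaks also belonged to a neighbouring gene. The strongest peak was that of another protein-coding gene as well at 19 to 22 members. No share of all promoters was set beside this count, so it does not show how members compare with other promoters.

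**Figure D4:**
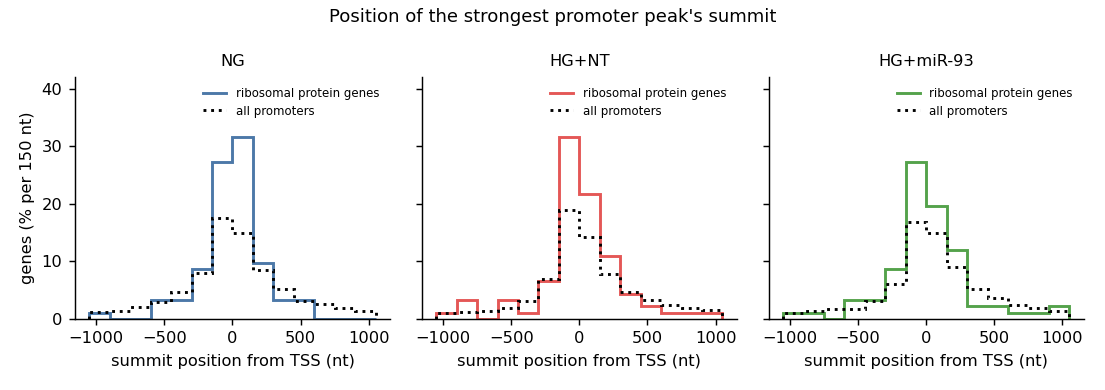
Share of genes (vertical axis, percent per 150 nt) by the position of the strongest promoter peak's summit relative to the TSS (horizontal axis, nt, downstream positive) in each list, for ribosomal protein genes (solid) and all promoters (dotted). Summits within 150 nt of a TSS made up 58.7%, 53.3% and 46.7% of ribosomal protein genes and 32.5%, 33.3% and 31.8% of all promoters.

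The ribosomal stalk, the arm of the large subunit that recruits elongation factors, is built from *Rplp0*, *Rplp1* and *Rplp2*. *Rplp0* had 28, 45 and 45 fragments, with pileups of 12.5, 11.7 and 8.75 and fold percentiles of 71.1, 56.4 and 28.3. *Rplp1* had pileups of 9.38, 4.67 and 5.44 and percentiles of 64.9, 51.3 and 20.5. *Rplp2* had pileups of 10.7, 7.01 and 6.41 and percentiles of 56.3, 6.07 and 43.6. All 3 had their highest pileup in NG, and their counting intervals overlapped between lists. *Rpsa*, a small subunit protein also known as a precursor of the laminin receptor, went the other way by fold, with percentiles of 15.2, 94.3 and 79.4. Its pileups were nearly equal at 7.15, 6.75 and 7.58, while the input mean at its summits, all within 150 nt of a TSS, was 5, 1.8 and 3.

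Among large subunit proteins, *Rpl5* and *Rpl11* join the smallest rRNA and, when free of ribosomes, bind *Mdm2*, the brake on *Trp53*. *Rpl5* had pileups of 9.83, 10.4 and 6.80 and *Rpl11* of 7.15, 5.71 and 3.89. Both were lowest in HG+miR-93, with intervals that overlapped those of the other lists. *Rpl22*, an RNA-binding protein with roles in lymphocyte development, had pileups of 8.49, 8.05 and 6.02 and percentiles of 53.7, 81.3 and 75.1. *Rpl3*, next to the peptidyl transferase centre, had pileups of 10.3, 10.1 and 8.55. *Rpl38*, known for its part in the translation of Hox mRNAs, had percentiles of 82.3, 5.07 and 4.27, but its NG summit lay at -501 nt from a TSS and its high glucose summits at 274 and 190 nt. *Rpl41*, the smallest ribosomal protein, had percentiles of 11.1, 50.7 and 5.22 and pileups of 8.04, 7.79 and 4.66.

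Among small subunit proteins, *Rps19*, the protein most often mutated in Diamond-Blackfan anaemia, had 35, 74 and 75 fragments, the most of all members in both high glucose lists and second to *Rpl30* in NG, and pileups of 15.6, 19.2 and 14.6. Its fold percentiles were 89.8, 69.8 and 83.6 over input means of 5, 9 and 6. *Rps14*, whose loss underlies the anaemia of a human myelodysplastic syndrome, had pileups of 10.3, 5.97 and 6.02 and percentiles of 93.0, 49.9 and 28.8, with an NG summit 1254 nt from the TSS. *Rps6*, the target of the S6 kinases, was low by fold in each list, with percentiles of 7.62, 10.4 and 3.28, although its pileups were 8.49, 5.71 and 5.83, since its input means were 7, 5 and 7. *Rps27a*, made as a fusion with ubiquitin, had percentiles of 21.3, 10.5 and 2.41 and pileups of 8.04, 4.41 and 5.44. *Rps3*, at the entry of the mRNA channel, had pileups of 8.93, 7.27 and 6.41 and percentiles of 43.0, 20.6 and 35.9. The single X-linked copy *Rps4x* had pileups of only 4.02, 3.64 and 4.86, the lowest of the multi-exon small subunit genes in NG.

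*Rps29* and *Rpl30* were near the top by fold in each list. *Rps29*, a small zinc-binding protein of the small subunit, had 32, 52 and 50 fragments over an input mean of 3 in each list, folds of 3.82, 3.63 and 2.68 and percentiles of 99.0, 98.9 and 95.7. *Rpl30*, a large subunit protein, had 40, 43 and 47 fragments, folds of 4.10, 3.04 and 2.53 and percentiles of 99.5, 96.8 and 93.1. All 6 of their summits were within 150 nt of a TSS. *Rpl13*, a large subunit protein near the exit tunnel, had percentiles of 94.3, 91.6 and 79.4, and *Rps10* of 97.6, 86.2 and 89.9, with input means of 3 at *Rpl13* and of 1.8 to 2 at *Rps10*. *Rpl31*, at the mouth of the exit tunnel, had percentiles of 89.0, 82.9 and 66.1. At the low end by mean percentile were *Rps26*, with 9.34, 2.18 and 1.87, and *Rpl23*, with 7.20, 8.36 and 33.4. Their pileups were not low, at 7.59, 6.49 and 5.05 for *Rps26* and 9.38, 7.53 and 6.02 for *Rpl23*, over input means of 6 to 8 and of 3.8 to 8.

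Paralogues and copies were read apart. *Rps27l*, a paralogue of *Rps27* that *Trp53* activates, had percentiles of 88.6, 95.3 and 83.5 and pileups of 9.83, 7.01 and 7.0. *Rpl36al*, a copy of *Rpl36a* that itself has several exons, had pileups of 13.8, 8.31 and 6.41. *Rpl22l1* and *Rpl7l1* had pileups of 8.49, 6.49 and 6.61 and of 10.3, 7.79 and 5.83. The genes known mainly from other tissues were low. *Rpl3l*, of skeletal and heart muscle, had pileups of 4.47, 4.41 and 4.47, *Rpl10l*, of the testis, 3.13, 3.64 and 3.30, and *Rpl39l*, also of the testis, 3.13, 2.60 and 3.11. Each of these values was below the medians of all promoters in the same list. The 7 single-exon members, *Rpl10l*, *Rpl9-ps1*, *Rpl9-ps6*, *Rpl10-ps3*, *Rpl36a-ps1*, *Rps12-ps3* and *Rps27rt*, had median highest pileups of 3.57, 3.64 and 3.30 against 9.38, 7.01 and 6.22 for the other 85. Such copies resemble their parent genes in sequence, and how reads shared between copies were placed is not given in the sources used here. *Rps19bp1*, which fits the symbol rule but is a partner of *Rps19* and not part of the ribosome, had pileups of 5.36, 6.49 and 6.41.

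From NG to HG+NT, where glucose and the mimic differed together, the median change in fold percentile was -6.63 points over the ribosomal protein genes (95% interval -15.1 to -1.37), -4.33 over the large and -7.88 over the small subunit. Ranked by pileup, which leaves the input out, it was -1.45. The percentile was higher by at least 10 points at 23 members (25%), where 35.4% of all promoters were called so, and lower by at least 10 points at 43 (46.7%), against 35.1% of all promoters. Mitochondrial ribosomal protein genes had a median change of -5.87 points with 46.2% lower, and proteasome genes -3.61 with 42.5% lower. The 6 elongation factor genes had a median change of 7.82, but single genes ran from -29.7 to 36.9, with 4 higher and 2 lower. The largest upward differences were at *Rpsa*, *Rpl9-ps6* and *Rpl17*, with percentiles of 15.2 and 94.3, of 8.69 and 76.0, and of 15.5 and 77.3. The largest downward differences were at *Rpl38*, with 82.3 and 5.07, *Rps25*, with 73.7 and 3.86, and *Rpl36a*, with 84.1 and 14.7. Ranked by pileup, *Rpl36a* had the opposite direction, with a change of 4.65 points. At *Rps25* the fragments were 23 and 32 and the input mean 4 and 9, with summits at -97 and then at 273 nt relative to a TSS. By pileup at the strongest peak by fold, 71 of 92 members were lower in HG+NT, against 62.4% of all promoters, with a median ratio of 0.806 against 0.904. The intervals of the highest pileup were apart at 1 member, *Rpl24*, which was lower, against 0.998% of all promoters, and at 0 members with a higher value, against 0.234%. *Rpl24*, a protein at the interface of the subunits, had 25, 17 and 21 fragments and pileups of 11.2 (7.23 to 16.5), 4.41 (2.57 to 7.07) and 4.08 (2.53 to 6.24).

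From HG+NT to HG+miR-93, which asks what the miR-93 mimic did in high glucose, the median change was -4.08 points (-12.7 to 1.13), so its interval held 0. It was -5.97 over the large and -3.23 over the small subunit. The percentile was higher by at least 10 points at 26 members (28.3%), against 31.9% of all promoters, and lower at 40 (43.5%), against 31.6%. Mitochondrial ribosomal protein genes had a median change of -7.22 points with 43.6% lower, and proteasome genes -8.99 with 47.5% lower. The 5 other genes with TOP mRNAs had a median change of 38.3 points, but single genes ran from -33.4 to 50.5, with 3 higher and 2 lower. Their pileup at the strongest peak by fold was lower in HG+miR-93 at all 5, with a median ratio of 0.768. The largest upward differences were at *Rps2*, *Rpl35* and *Rpl22l1*, with percentiles of 8.28 and 70.2, of 35.9 and 89.9, and of 12.3 and 65.3, and the largest downward ones at *Rpl9-ps6*, with 76.0 and 2.74, *Rpl34*, with 94.3 and 28.8, and *Rpl27*, with 74.5 and 10.01. Among these 6, the summits of the lists were within 150 nt of each other at none. Ranked by pileup, *Rps2* and *Rpl35* had the opposite direction, with changes of -12.9 and -0.98 points. At *Rps2*, a protein of the mRNA entry channel, the HG+NT summit had 41 fragments over an input mean of 10 and lay at -111 nt from a TSS, and the HG+miR-93 summit had 21 over 1.58 and lay at 613 nt, so different positions were compared. By pileup at the strongest peak by fold, 67 members were lower in HG+miR-93, against 59.2% of all promoters, with a median ratio of 0.817 against 0.952. The intervals of the highest pileup were apart at 0 members in either direction, against 0.0824% of all promoters with a higher and 0.343% with a lower value. At the strongest peak by fold, the intervals were apart with a higher value at 0.426% of all promoters and with a lower one at 1.90%. They were apart at 2 members with a higher and 3 with a lower value. One of them, *Rpl15*, a large subunit protein, was lower in HG+NT than in both other lists, with pileups of 9.83 (6.16 to 14.9), 2.86 (1.43 to 5.11) and 8.16 (5.88 to 11.03). Its summits lay apart, at 126, -814 and -76 nt from a TSS. Its highest pileups at any promoter peak were 9.83, 10.1 and 8.16, with intervals that overlapped.

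From NG to HG+miR-93, the 2 lists furthest apart in depth, the median change was -17.5 points (-21.7 to -6.34), with -18.9 over the large and -6.91 over the small subunit. Ranked by pileup, it was -5.98, with -6.13 over the large and -3.60 over the small subunit. The percentile was higher by at least 10 points at 17 members (18.5%), against 35.3% of all promoters, and lower at 51 (55.4%), against 36.3%. Of the 51, 37 were large and 14 small subunit genes. The median change was -17.0 points over mitochondrial ribosomal protein genes and -10.9 over proteasome genes. Of these groups, 59.0% and 50% were lower by at least 10 points and 15.4% and 12.5% higher. The lower percentiles were thus not particular to the cytosolic ribosome. The 6 elongation factor genes had a median change of 6.38, but single genes ran from -34.5 to 26.3, and pileup was lower at 4 of the 6. By pileup 78 of 92 members were lower in HG+miR-93, against 67.5% of all promoters, with a median ratio of 0.687 against 0.870. The largest upward differences were at *Rpsa*, *Rpl36-ps4* and *Rpl10-ps3*, with percentiles of 15.2 and 79.4, of 8.69 and 56.5, and of 9.99 and 44.4, and the largest downward ones at *Rps9*, with 83.6 and 4.12, *Rpl38*, with 82.3 and 4.27, and *Rpl24*, with 94.3 and 24.5. Ranked by pileup, *Rpl38* and *Rpl10-ps3* had the opposite direction, with changes of 1.78 and -5.83 points. At *Rps9*, a small subunit protein, the summits were at -7 and -39 nt from a TSS with 26 and 27 fragments, and the input mean was 4 and 6. Where the summits of both lists lay within 150 nt of each other, at 37 members, the median change was -22.4 points, against -4.21 over all such promoters. The intervals of the highest pileup were apart at 5 members with a lower value (5.43%), against 1.31% of all promoters, and at 0 with a higher one, against 0.114%. All 5 were large subunit genes, *Rpl24*, *Rpl29*, *Rpl30*, *Rpl35a* and *Rpl36al*. *Rpl30* had pileups of 17.9 (12.8 to 24.3) in NG and 9.13 (6.71 to 12.1) in HG+miR-93. *Rpl36al* had 13.8 (9.41 to 19.7) and 6.41 (4.41 to 9.01), *Rpl35a* 11.2 (7.23 to 16.5) and 4.86 (3.14 to 7.17), and *Rpl29* 10.7 (6.87 to 15.9) and 4.47 (2.83 to 6.71). *Rpl30*, *Rpl36al*, *Rpl35a* and *Rpl29* had HG+NT values between those of the other lists. These 5 genes had 21 to 47 fragments in HG+miR-93 and 24 to 40 in NG, numbers that differed less than the depths did.

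**Figure D5:**
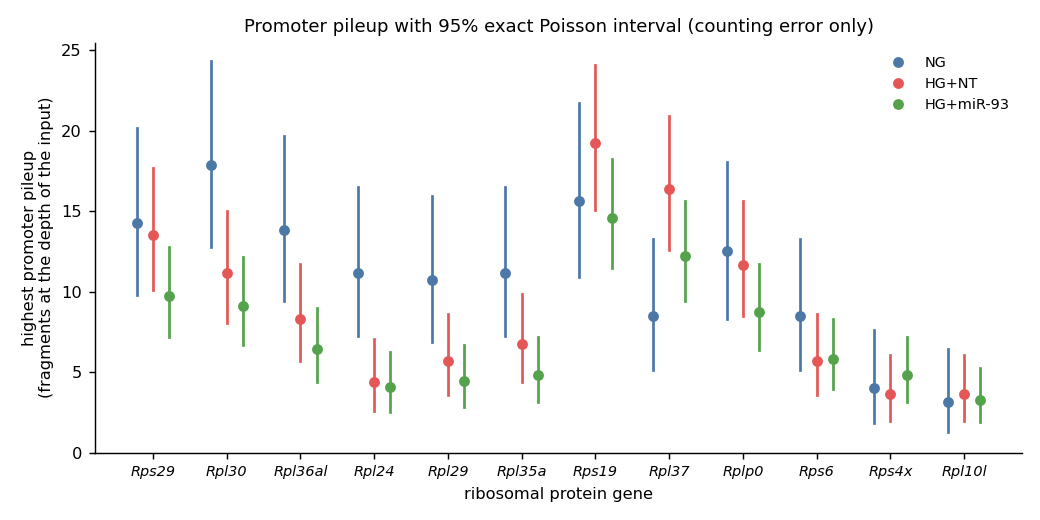
Highest promoter pileup (vertical axis, fragments scaled to the input's depth) of 12 ribosomal protein genes in each list. Points are values and vertical lines 95% exact Poisson intervals, which cover counting error only. The NG and HG+miR-93 intervals were apart at *Rpl30*, *Rpl36al*, *Rpl24*, *Rpl29* and *Rpl35a* and overlapped at the other genes drawn.

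Over the 3 lists, the highest pileup was in NG at 70 members (76.1%), followed by HG+NT at 17 and HG+miR-93 at 5, where 57%, 25.8% and 17.1% of all promoters had theirs. Depth moved with this order, since NG had the fewest and HG+miR-93 the most fragments, and its part in the differences was not tested. A value in the order NG, HG+NT, HG+miR-93 from high to low was found at 48 members at the strongest peak by fold, against 32.2% of all promoters, and the reverse order at 2 (2.17%), against 10.7%. *Rps19* and *Rpl37* were among the members that did not follow it. *Rpl37*, a zinc-binding large subunit protein, had 19, 63 and 63 fragments and pileups of 8.49 (5.11 to 13.3), 16.4 (12.6 to 20.9) and 12.2 (9.41 to 15.7).

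Other genes of translation were compared as lists chosen by function. The 6 elongation factor genes had median highest pileups of 13.8, 14.7 and 12.7, above the ribosomal protein genes in each list, and did not share their order of lists. The 29 initiation factor genes had medians of 10.3, 7.79 and 7.58 and the 5 other genes with TOP mRNAs 10.7, 10.1 and 7.77. At the strongest peak by fold, *Eef2*, the translocase, had pileups of 14.7, 17.4 and 14.96 but percentiles of only 4.99, 20.6 and 13.3, since its input mean was 13 in each list. *Eif5a*, a factor for stalled peptide bonds, had pileups of 7.59, 24.4 and 14.8 there. As a check of the cells, the 6 podocyte marker promoters had median highest pileups of 6.48, 5.97 and 5.54 and the 8 markers of endothelium, leukocytes and tubules 4.69, 4.41 and 4.96. *Actn4* had fold percentiles of 87.7, 93.3 and 90.8, whereas *Nphs1*, which encodes nephrin of the slit diaphragm, had 9.99, 55.0 and 64.1.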

How the data were processed

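DNase-Seq had been performed on podocytes in 3 conditions with 2 replicates each, and on genomic DNA as input. The authors processed reads with CASAVA 1.8.2 and TrimGalore!, aligned them with Bowtie to mm10, filtered duplicates and ran MACS2 with the input as control, giving 1 deposited peak list per condition over pooled replicates. The deposited columns hold a score, a fold enrichment over the input (a ratio with a pseudocount of 1), a −log10 p and a −log10 q. The fold and −log10 p served here, the −log10 q only to count peaks, and the score was left out. Permissive lists make presence of a peak uninformative, so ranks were used.

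Fold and −log10 p are fixed by the fragments at the summit and the local mean of the input, and both were solved for each peak. A single solution was found for 99.7 to 100.0% of promoter peaks, and for 99.98 to 100% of 5000 simulated peaks at each of 3 depths close to those of the lists the fragments were recovered. Input windows of 200 nt fragments were assumed in steps of 0.02. Pileup is fragments divided by depth relative to the input. Intervals are exact Poisson or Wilson at 95% and cover counting error only, without the spread between cultures.

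A peak belonged to a promoter if it overlapped 500 nt on either side of any of 54374 protein-coding TSSs (GENCODE vM21) by at least 1 bp. Sequence windows were read from the GRCm38 genome. Software was Python 3.11.15 with scipy 1.17.1, pandas 2.3.3, matplotlib 3.10.9 and numpy 2.4.6. With 1 list per condition no test was made: a difference was counted from 10 percentile points, or where pileup intervals did not overlap.

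The members and lists were chosen with earlier results of these data known. Members were named by a rule: the stalk proteins and Rpsa, members with known roles, paralogues, the 3 highest and 3 lowest per subunit by mean percentile, the 3 largest differences in each direction per comparison, and members with pileup intervals apart. Rps12, Rps28, Rps4x, Rpl8, Rpl15, Rpl37, Eef2, Eif5a and the podocyte genes were named after their values had been seen. The alternatives were other rankings, promoter definitions, thresholds and member lists. Some items are not reported here.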

Additional observations from a re-analysis of the deposited data

How the results depend on the processing

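No paired analysis was possible because the lists pool the replicates and no column carries a replicate, and for the same reason no replicate could be left out. Of 150 values over the whole group, 107 moved by less than their interval or, for counts, by less than 1.5 times, and of 108 values per subunit 96 did. For named genes, 636 of 699 percentiles and 73 of 84 differences did so.

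Ranking 21834 genes by their highest pileup, which leaves the input out, moved the median percentile of NG, HG+NT and HG+miR-93 to 77.9, 71.0 and 67.5 for all members and for the large subunit and to 77.9, 71.0 and 64.8 for the small. The members called higher were then 13, 14 and 9 in the 3 comparisons (NG to HG+NT, HG+NT to HG+miR-93, NG to HG+miR-93) and those lower from NG to HG+NT 27. The median change from NG to HG+miR-93 became -5.98, and -6.13 for the large subunit. Under this ranking 5 differences had the opposite sign, *Rpl10-ps3* (-5.83) and *Rpl38* (1.78) from NG to HG+miR-93, *Rpl35* (-0.98) and *Rps2* (-12.9) from HG+NT to HG+miR-93 and *Rpl36a* (4.65) from NG to HG+NT. 

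Peaks with −log10 p of at least 1.3 left 20 members. They were ranked among only the 4168 genes with such a peak in each list, so their percentiles are not on the scale used above. Their median in HG+miR-93 was 17.0, the large subunit had 37.9 in NG and 16.2 in HG+miR-93, and the small subunit had 73.1 in HG+NT. The changes were -20.5 from HG+NT to HG+miR-93 (-32.4 for the small subunit) and -25.5 from NG to HG+miR-93 (-30.6 for the large), and 7, 3 and 3 members were higher and 10, 13 and 15 lower. A change of 25 points left 10, 11 and 9 members higher and 24, 24 and 33 lower, and a pileup ratio of 1.5 left 4, 6 and 4 higher and 17, 9 and 21 lower. Counts and shares in this section with no share of all promoters beside them do not show how members compare with other promoters. Summits within 500 nt were found at 85.9%, 78.3% and 75% of members, and with 1 TSS per gene 41.3% in NG were within 150 nt. Among the 5000 strongest peaks were 30.4%, 18.5% and 7.61% of members, and among the 50000 strongest 45.7% of members in HG+NT with 35.9% in HG+miR-93. Of the alternatives chosen after seeing the data, summits within 150 nt of each other gave a change of -22.4 from NG to HG+miR-93. Another was intervals at the strongest peak by fold, apart at 3 members lower in HG+NT than NG, against 2.19% of all promoters. In HG+miR-93 they were apart at 2 members higher and 3 lower than in HG+NT, against 0.426% and 1.90%. From NG to HG+miR-93 they were apart at 8 lower members, against 3.49%. Apart from fewer genes or another threshold, the cause of these shifts was not tested. A member had a median of 21 to 31 fragments at its highest peak, which limits what single genes can show, and the spread between replicates is not known from pooled lists.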

Other observations

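Among the other translation and marker genes, 5 had the largest differences in fold percentile between lists. *Taf1c*, a subunit of the promoter selectivity factor of RNA polymerase I, had percentiles of 7.86, 58.2 and 98.5 in NG, HG+NT and then HG+miR-93, with pileups of 6.25, 5.71 and 7.38 over input means of 5, 2.6 and 1.76. *Ubtf*, which opens the ribosomal DNA for the same polymerase, had 97.1, 21.2 and 89.2, with pileups of 9.83, 5.71 and 6.61. *Rrp9*, a protein of the small nucleolar particle that processes rRNA, had 85.7, 95.3 and 15.2, with pileups of 12.5, 16.1 and 8.55. *Eif3f*, a subunit of the initiation factor that binds the small ribosomal subunit, had 77.5, 6.07 and 1.87, with pileups of 4.91, 7.01 and 5.05 over input means of 1.52, 7 and 7. *Podxl*, the podocalyxin of podocyte foot processes, had 90.4, 13.6 and 75.9, with pileups of 5.81, 4.93 and 5.25. These are values of single pooled lists, and none of the differences was tested.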
